A study of Mus musculus with 30 samples.

Results

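Wild-type (WT) microglia exposed to amyloid-beta for 2 h were compared with WT microglia at 2 h without it. The libraries were chosen by their labels alone: 6 of the study's 30, of which 3 received conditioned medium that held amyloid-beta and 3 are labelled as receiving no treatment. All genes in the deposited table are described across them. Where an effect is set against another, the further groups are the libraries labelled PD-1 KO at 2 h with and without amyloid-beta, and WT at 8 h with and without it, 3 libraries each. All come from primary mouse brain cultures, from which microglia were shaken off after several days. The labels do not give the animals' strain, age or number, the source of the conditioned medium, or what medium the untreated cells received. Amyloid-beta and the rest of the conditioned medium therefore cannot be told apart. An amyloid-beta effect below is that of the medium that held it. Replicate numbers only name libraries. Nothing ties the replicates to separate animals or cultures, so each p-value speaks only of library-to-library spread, part of which may be technical.

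Microglia are the resident macrophages of the brain. They bind and take up amyloid-beta through scavenger and pattern-recognition receptors, and some of these receptors signal to NF-kB and to the interferon regulatory factors. Type I interferon acts through a receptor coupled to the kinases Jak1 and Tyk2. These activate STAT factors, which with IRF9 switch on a large set of antiviral genes, among them Irf7, which itself drives further interferon production.

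Sequencing depth over the genes in the table was 8057104, 10221148 and 7828257 reads in WT 2 h with amyloid-beta replicates 1, 2 and 3, and 11004199, 48509985 and 10299399 reads in WT 2 h replicates 1, 2 and 3. Untreated replicate 2 was therefore the deepest library of the study, in which depth ran from 4227019 to 48509985 reads. Values are read counts scaled to a common library size and floored at 1, and the floor can hide up to 4 reads in untreated replicate 2. Pdcd1, which encodes PD-1, lay at the floor of 1 in all 15 WT libraries and at 6.02 to 25.3 in the 15 labelled PD-1 KO. That is the opposite of what a loss of transcript would give. The doubt covers the WT label as well as the PD-1 KO label, and any direction drawn below from either label carries it. The 14 markers of microglia and macrophages were all detected in the 6 libraries, with summed values of 171836 to 206258 with amyloid-beta and 164809 to 190843 without. Markers of other brain cells were present at lower levels, with sums of 3264 to 3827 and 2533 to 3969 for 11 astrocyte markers, 4394 to 5107 and 4876 to 5568 for 13 oligodendrocyte lineage markers, and 821 to 1141 and 858 to 1193 for 10 neuron markers, with and without amyloid-beta in that order. The astrocyte sums overlap between the groups, as do those of the oligodendrocyte lineage and of neurons, and their part in the results below was not tested. In bulk cultures, fewer cells of a type and less RNA per cell cannot be told apart.

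After 2 h of amyloid-beta, interferon-induced genes stood above their untreated levels as a group, while no single gene passed the test. In limma's moderated test over all 30 libraries, 0 of 13722 genes (0%) had a Benjamini-Hochberg adjusted p under 0.05, and the lowest, that of Irf7, was 0.504. At an unadjusted p under 0.05 there were 681 genes, 337 higher (2.46%) and 344 lower (2.51%). The groups did not overlap, every library of one group lying beyond every library of the other, for 460 genes that were higher with amyloid-beta (3.35%) and 409 that were lower (2.98%). Of 75 tested genes in 6 lists of interferon-related genes, 36 were higher without overlap and 0 lower. Of the 75, 69 had a log2 fold change above 0, and their median was 0.49, against -0.01 over all genes tested. Single genes of this set are therefore described below by their values, and none of them is a limma call. The lists were chosen with earlier results of these data known, and the members of a list can move together. Counts over a list thus describe 3 libraries against 3 and are not a test.

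Other ways of weighting the libraries did make calls. With voom, which models the precision of the reads recovered from the values, 15 genes were higher (0.109%) and 0 lower. Of these, 12 are in the interferon lists: Oas3, Irf7, Zbp1, Usp18, Ifit1, Ifit2, Ifit3, Isg15, Rsad2, Mx1, Ddx58 and Igtp. The other 3 were H2-T24, a non-classical MHC class I gene, Pyhin1, an interferon-inducible gene of the HIN family, and Tgoln2, a resident protein of the trans-Golgi network. Tgoln2 had values of 349, 318 and 518 with amyloid-beta and 391, 1 and 359 without, so its call rests on untreated replicate 2, where it lay at the floor. In the 29 other libraries of the study it ran from 34.2 to 740. With array weights, which down-weight libraries that fit the group means poorly, 214 genes were higher (1.56%) and 326 lower (2.38%), and 28 of the 75 interferon genes were among the higher and 1 among the lower.

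The antiviral effectors of the IFIT and MX list had a median log2 fold change of 1.09 over 11 genes, all of them above 0, with 6 showing no overlap. Ifit3, which belongs to a family of proteins that bind foreign RNA, had values of 395, 661 and 558 in the amyloid-beta libraries, against 170, 174 and 288 in the untreated ones. All 3 amyloid-beta libraries lay above all untreated ones, and the log2 fold change was 1.36 ± 0.31 (SE; limma adjusted p = 0.52). Ifit1, of the same family, had 127, 171 and 156 with amyloid-beta and 51.9, 38.5 and 116 without (1.27 ± 0.39), again without overlap. Rsad2, which encodes the antiviral enzyme viperin, had 177, 430 and 342 with amyloid-beta and 106, 98.9 and 173 without (1.28 ± 0.40). The gap between the groups was small for Rsad2, 177 in amyloid-beta replicate 1 against 173 in untreated replicate 3. For Ifit2 and for Mx1, a GTPase that blocks viral replication, amyloid-beta replicate 1 lay below untreated replicate 3. Ifit2 had 198, 421 and 384 with amyloid-beta and 134, 67.1 and 206 without (1.36 ± 0.35), and Mx1 had 113, 249 and 211 with amyloid-beta and 76.0, 69.6 and 114 without (1.09 ± 0.41). Ddx58, the cytosolic RNA sensor RIG-I, had 539, 657 and 609 with amyloid-beta and 392, 307 and 491 without (0.62 ± 0.15). Ifit3 and its close copy Ifit3b (1.34 on the log2 scale) may share reads, so the division between them is uncertain.

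In the OAS list, whose enzymes make the second messenger that activates the antiviral ribonuclease RNase L, the median was 0.87 over 8 genes, and 6 did not overlap. Oas3 had the largest fold in it, with 148, 250 and 259 in amyloid-beta libraries and 53.8, 25.5 and 77.9 in untreated ones (2.14 ± 0.52). Its lowest amyloid-beta value was above its highest untreated one. Zbp1, a sensor of Z-form nucleic acid listed with them, had 172, 260 and 238 with amyloid-beta and 86.2, 87.9 and 115 without (1.20 ± 0.32). Oasl2 had 1034, 1435 and 1370 with amyloid-beta and 667, 563 and 853 without (0.89 ± 0.24). Oas1a had 1378, 1323 and 1361 with amyloid-beta and 749, 833 and 1021 without (0.65 ± 0.18), and Oas1g came to 0.85 ± 0.30. Oas1a and Oas1g are near-identical copies, and how the authors' counting divided reads between them is not given in the sources used here.

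Among the factors that carry the interferon signal, Irf7 had 369, 447 and 392 in the amyloid-beta libraries against 170, 155 and 190 in the untreated ones (1.23 ± 0.25). Stat2, which joins IRF9 in the factor that binds interferon-induced promoters, had 844, 1039 and 878 with amyloid-beta and 690, 535 and 700 without (0.52 ± 0.13). Neither gene overlapped between the groups. The receptor chains and kinases of the same list did not stand apart: Ifnar1, Ifnar2, Ifngr1, Jak1 and Tyk2 had log2 fold changes between -0.13 and 0.16, and the median of the 16 IRF and STAT genes was 0.08.

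Ubiquitin-like modifiers and their regulators had a median of 0.40, with 14 of 14 genes above 0 and 8 without overlap. Isg15, a ubiquitin-like protein attached to other proteins after interferon exposure, had 204, 230 and 264 with amyloid-beta and 81.6, 105 and 156 without (1.06 ± 0.29). Usp18, the protease that removes Isg15 and dampens the interferon receptor, had 218, 239 and 231 with amyloid-beta and 109, 87.9 and 143 without (1.04 ± 0.28). Both genes had their highest untreated value in replicate 3. Surface and secreted products had a median of 0.54 over 17 genes, with 7 showing no overlap. Among them Ifitm3, which hinders viral entry, had 972, 1517 and 1224 with amyloid-beta and 550, 764 and 913 without (0.74 ± 0.17). Ly6e came to 0.88 ± 0.21, Ifi27l2a to 0.93 ± 0.32 and Lgals3bp, a secreted galectin-binding protein, to 0.58 ± 0.17, each without overlap. Bst2, which tethers virus particles, had 2395, 2335 and 2202 with amyloid-beta and 1316, 2230 and 1828 without (0.40 ± 0.18), and the groups overlapped.

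The guanylate-binding and immunity-related GTPases, which act on vacuoles that hold pathogens, had a median of 0.45 over 9 genes, with 5 showing no overlap. Igtp had 274, 224 and 277 with amyloid-beta and 145, 163 and 179 without (0.67 ± 0.15). Irgm2 came to 0.57 ± 0.17 and Gbp2 to 0.69 ± 0.21, both without overlap, while Gbp5 stood at -0.68. Genes of MHC class I and peptide loading, kept as a list of their own, had a median of 0.23 over 16 genes, 15 of them above 0 and 5 without overlap. H2-K1, a classical class I heavy chain, had 12788, 10973 and 10009 with amyloid-beta and 7596, 9527 and 8619 without (0.39 ± 0.11). H2-T23, a non-classical one, had 2401, 2266 and 2062 with amyloid-beta and 1263, 1626 and 1760 without (0.54 ± 0.20).

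**Figure D1:**
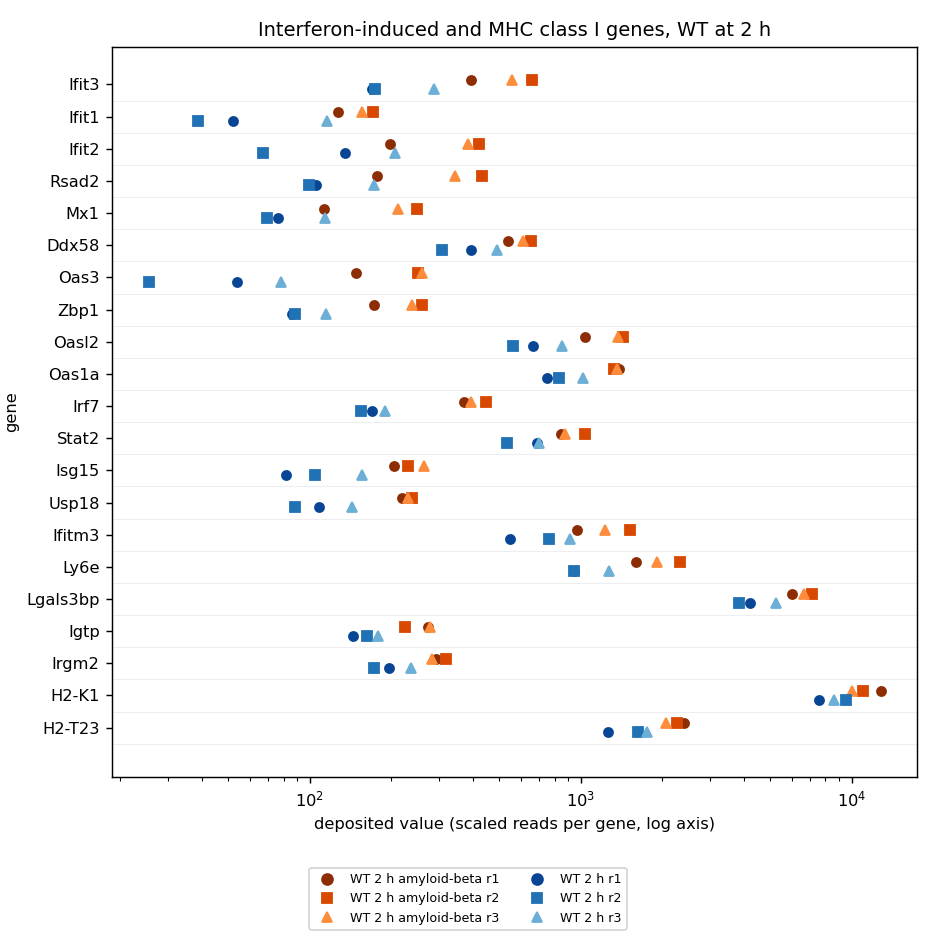
Deposited values (scaled reads per gene, log axis) of 21 interferon-induced and MHC class I genes in the 3 WT 2 h amyloid-beta libraries (upper points of each row, orange and brown) and the 3 WT 2 h libraries (lower points, blue), 1 point per library. Irf7 has a wide gap between the groups, 369 against 190 at its narrowest, and Rsad2 a small one, with 177 in amyloid-beta replicate 1 against 173 in untreated replicate 3.

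The separation was not even over the libraries. When each gene was set to its own mean over the 6 libraries on the log2 scale, the median of the 75 interferon genes stood at 0.12, 0.38 and 0.32 in amyloid-beta replicates 1, 2 and 3 and at -0.30, -0.40 and -0.07 in untreated replicates 1, 2 and 3. For the IFIT and MX list these medians were -0.11, 0.82 and 0.77 with amyloid-beta and -0.55, -0.65 and -0.05 without. Amyloid-beta replicate 1 and untreated replicate 3 therefore lay close to each other in this list. MHC class I genes had another order, with medians of 0.19, 0.14 and 0.06 with amyloid-beta and -0.34, -0.02 and -0.03 without, so that untreated replicate 1 was the one far below the rest. The median fold of the 75 interferon genes ran from 0.37 without untreated replicate 2 to 0.60 without amyloid-beta replicate 1.

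Promoter sequence was compared because the interferon-stimulated response element, the site bound by IRF and STAT factors, has a known core. The letters GAAANNGAAA, or TTTCNNTTTC for the opposite strand, were searched from 250 bases before to 50 bases after the transcription start in RefSeq promoters of GRCm38.p6. Of the 13722 genes tested, 10942 had a promoter in that table, and 416 of them (3.80%) held the motif. Of the interferon genes 61 had a promoter and 32 (52.5%) held it, against 7 of 65 (10.8%) ribosomal protein genes and 1 of 28 (3.57%) cell cycle genes. Within the interferon lists the share was 7 of 8 (87.5%) for IFIT and MX effectors, 5 of 6 (83.3%) for OAS enzymes and Zbp1, 7 of 8 (87.5%) for the GTPases and 2 of 15 (13.3%) for IRF and STAT factors. It was 17 of 27 (63.0%) for interferon genes that were higher without overlap and 15 of 34 (44.1%) for the others. The lists were drawn up from known interferon-related genes, so their high share follows from that choice and does not bear on these libraries. The sets with and without overlap also draw unevenly on the lists, whose shares differ. Of the OAS list 6 of 8 genes were higher without overlap, and of the IRF and STAT genes 4 of 16. A match is a description of the letters and does not show a bound site. The following windows of 50 bases are printed 5′ to 3′ on the gene's strand for genes described above, with the match in capitals.
Ifit3, chr19:34583387-34583436, plus strand: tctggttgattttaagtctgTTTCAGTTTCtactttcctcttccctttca
Ifit1, chr19:34640765-34640814, plus strand: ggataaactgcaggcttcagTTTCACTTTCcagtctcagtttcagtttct
Rsad2, chr12:26456543-26456592, minus strand: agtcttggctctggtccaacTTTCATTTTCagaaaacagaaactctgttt
Oas3, chr5:120777705-120777754, minus strand: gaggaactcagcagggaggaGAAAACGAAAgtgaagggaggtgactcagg
Isg15, chr4:156200855-156200904, minus strand: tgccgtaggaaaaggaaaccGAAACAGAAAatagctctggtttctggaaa
Igtp, chr11:58199502-58199551, plus strand: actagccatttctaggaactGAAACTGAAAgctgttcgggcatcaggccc
The matches in Ifit3, Ifit1 and Isg15 are not their only ones, and the last base of the printed match lies between 24 bases (Igtp) and 112 bases (Ifit3) before the annotated start. Irf7 had no match in its window.

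The amyloid-beta effect at 2 h in WT differed from 2 other amyloid-beta effects of the study. The labels do not say whether the same medium was used in all of them. Tested against the effect at 8 h in WT, it differed for 37 of 13722 genes (0.27%), all with a more positive fold at 2 h, and 36 of the 37 had a fold above 0 at 2 h and below 0 at 8 h. Of the 37, 22 are in the interferon lists. The directions were less one-sided with array weights, at 589 higher and 216 lower, or 668 and 252 in a fit of the compared groups alone. At 8 h, Irf7 had 55.2, 55.9 and 62.5 with amyloid-beta and 240, 123 and 198 without, a log2 fold change of -1.63 ± 0.25, against 1.23 ± 0.25 at 2 h. The difference was 2.85 ± 0.35 (limma adjusted p = 0.000121). Ifit3 had 56.2, 64.7 and 69.9 with amyloid-beta at 8 h and 495, 218 and 178 without, and its difference between the times was 3.43 ± 0.44 (limma adjusted p = 0.000121). In both genes the groups were apart at each time, in opposite directions. Genes outside the 6 lists that also differed between the times, named here after their values were seen, include the class I genes H2-K1 (0.75 ± 0.16) and H2-Q4 (0.86 ± 0.17), the DNA exonuclease Trex1 (1.20 ± 0.24), the complement component C3 (1.56 ± 0.32) and the receptor Tlr2 (0.72 ± 0.14). C3 and Tlr2 had folds of 0.25 and 0.09 at 2 h, and so differed mainly through their folds of -1.31 and -0.63 at 8 h. Pdgfra, Nlgn3, Id1 and Marcksl1 are among the 37 as well, with folds of -2.65, -1.52, -1.20 and -0.83 at 8 h. At 8 h the median fold was -0.90 for astrocyte markers, -0.38 for oligodendrocyte lineage markers and -0.41 for neuron markers. For microglia and macrophage markers it was -0.10. The part of other cells in the differences between the times was not tested. Without WT 8 h replicate 1 the count of 37 became 12, without WT 8 h replicate 3 it became 93, and without untreated WT 2 h replicate 2, WT 8 h amyloid-beta replicates 2 and 1 or WT 2 h amyloid-beta replicate 3 it was 13, 16, 22 and 20. It was 59 without WT 2 h amyloid-beta replicate 2, of which 40 were higher and 19 lower.

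Tested against the effect at 2 h in libraries labelled PD-1 KO, the WT effect differed for 7 genes (0.051%), and all 7 are in the interferon lists: Irf7, Oas3, Zbp1, Oasl2, Oas1a, Ly6e and Ifi27l2a. All 7 had a more positive fold in WT, whereas array weights gave 214 higher and 263 lower, or 215 and 377 in a fit of the compared groups alone. In libraries labelled PD-1 KO, Irf7 had 54.5, 38.1 and 54.3 with amyloid-beta and 134, 79.7 and 90.0 without, a log2 fold change of -1.02 ± 0.25. Ifi27l2a had 86.1, 58.2 and 73.6 with amyloid-beta and 323, 159 and 256 without (-1.70 ± 0.32). Both genes were thus lower with amyloid-beta in every library of that label and higher in every WT one, and the differences of the effects were 2.24 ± 0.35 for Irf7 (limma adjusted p = 0.00537) and 2.64 ± 0.45 for Ifi27l2a (limma adjusted p = 0.00934). The median of the difference over the 75 interferon genes was 0.77, against -0.01 over all genes. The count of 7 became 30 without WT 2 h amyloid-beta replicate 1, 22 without WT 2 h replicate 3 and 15 without replicate 2 of the untreated 2 h libraries labelled PD-1 KO. It was 2 to 4 without any 1 of WT 2 h replicates 1 and 2, WT 2 h amyloid-beta replicates 2 and 3, untreated replicates 1 and 3 of the label and its amyloid-beta replicate 2.

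Gene lists of other macrophage responses had medians close to that of all genes, and some held a few genes without overlap. Chemokines had a median log2 fold change of 0.12 over 14 genes, cytokines and inflammasome genes 0.07 over 14, NF-kB subunits and inhibitors 0.05 over 20, Toll-like receptors and adaptors 0.09 over 19 and immediate early genes -0.06 over 27. Of the chemokines and of the cytokines and inflammasome genes, 0 were without overlap. Among NF-kB genes 3 of 20 were higher without overlap, Tnip3 (0.38 ± 0.15), Ikbkg (0.26 ± 0.10) and Birc3 (0.20 ± 0.13), against 3.35% of all genes. Among Toll-like receptors and adaptors 3 of 19 were higher, the adaptors Ticam1 (0.24 ± 0.10) and Myd88 (0.21 ± 0.11) and the kinase Irak4 (0.14 ± 0.10). The 1 that was lower was Ly96, the partner of Tlr4 in sensing lipopolysaccharide, with 79.8, 146 and 143 with amyloid-beta and 149, 222 and 180 without (-0.61 ± 0.20). Tnip3 and Ly96 were picked out after their values were seen. Tnf, a cytokine released early by activated macrophages, had 641, 581 and 438 with amyloid-beta and 501, 519 and 415 without (0.20 ± 0.15), and the groups overlapped. Il1b had 19.9, 24.3 and 23.7 with amyloid-beta and 30.6, 12.8 and 13.7 without (0.34 ± 0.33). Cxcl10, a chemokine that interferon induces, had 18.5, 24.3 and 25 with amyloid-beta and 11.1, 14.2 and 22.1 without (0.53 ± 0.26), and Ccl2 came to 0.46 ± 0.49. All 4 genes overlapped between the groups. Egr1, an immediate early transcription factor, was lower without overlap, with 388, 525 and 456 with amyloid-beta and 609, 566 and 547 without (-0.34 ± 0.11).

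Receptors that bind amyloid or mediate uptake had a median of 0.03 over 28 genes. Without overlap 5 were higher and 1 lower, against 3.35% and 2.98% of all genes, so the 1 lower gene is near the share of all genes. Axl, a receptor tyrosine kinase that recognises dying cells, had 1030, 1048 and 1187 with amyloid-beta and 836, 595 and 931 without (0.49 ± 0.12). The Fc gamma receptors Fcgr4 (0.41 ± 0.14) and Fcgr1 (0.36 ± 0.12), which bind antibody-coated particles, were also higher without overlap. Stab1, a scavenger receptor, had 5522, 10002 and 9440 with amyloid-beta and 12689, 10058 and 10195 without (-0.44 ± 0.19), with only a narrow gap between 10002 and 10058. Trem2, a lipid-sensing receptor of microglia, had 24081, 16240 and 16699 with amyloid-beta and 14590, 23493 and 17655 without, and Apoe had 222021, 164562 and 144379 with amyloid-beta and 159411, 233222 and 166908 without. In both genes the highest libraries were amyloid-beta replicate 1 and untreated replicate 2, so that the groups overlapped fully. Cd36, a scavenger receptor for fibrillar amyloid-beta, came to 0.13 ± 0.14 and App, its precursor protein, to 0.10 ± 0.09. Disease-associated microglia genes had a median of 0.04 over 21, homeostatic microglia genes 0.00 over 15 and complement genes 0.08 over 17.

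Small shifts of 1 sign were seen in lists of metabolism and stress. Targets of NRF2, the regulator of the oxidant response, had a median of 0.12 with 21 of 24 genes above 0, and glycolysis genes 0.12 with 20 of 23 above 0. Gclm, a subunit of the enzyme that starts glutathione synthesis, had 1771, 1368 and 1465 with amyloid-beta and 1272, 1224 and 1308 without (0.27 ± 0.11), without overlap. Hmox1, which degrades haem, had 30423, 17634 and 20480 with amyloid-beta and 19082, 18683 and 19170 without (0.23 ± 0.15). Amyloid-beta replicate 1 was far above the rest for Hmox1, and the list medians rest on it: without that library they were -0.03 for NRF2 targets and 0.00 for glycolysis. Lysosomal hydrolases and membrane proteins had 25 of 28 genes above 0 with a median of 0.09, which was 0.02 without amyloid-beta replicate 1.

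Cell cycle and replication genes lay on the other side, with 29 of 36 genes below 0, against 7030 of the 13722 genes tested. Their median was -0.21, and 5 of the 36 were lower without overlap, against 2.98% of all genes. Ccnb2, a cyclin of the G2 to M transition, had 8.55, 14.2 and 6.96 with amyloid-beta and 17.6, 16.7 and 21.1 without (-0.88 ± 0.33). Foxm1, a transcription factor of the same phase, had 62.7, 80.0 and 52.9 with amyloid-beta and 83.5, 89.2 and 94.8 without (-0.46 ± 0.23), and Stmn1, a microtubule regulator, had 557, 473 and 441 with amyloid-beta and 625, 710 and 583 without (-0.38 ± 0.16). The Ccnb2 values of 8.55 and 6.96 rest on few reads, as 1 read is worth 1.42 in amyloid-beta replicate 1 and 1.39 in replicate 3. The replication genes Pcna, Mcm2, Mcm6 and Gins2 were among the 7 genes above 0, between 0.02 and 0.18. The shift was mainly that of amyloid-beta replicate 3, whose median against the gene means was -0.32, while replicates 1 and 2 stood at 0.09 and -0.02 and untreated replicates 1, 2 and 3 at 0.01, 0.13 and 0.11. Without amyloid-beta replicate 3 the median fold was -0.12. Markers of the oligodendrocyte lineage lay lower in the same library: 10 of 13 were below 0 with a median fold of -0.24, and their medians against the gene means were -0.15, 0.11 and -0.35 with amyloid-beta and 0.00, 0.22 and 0.12 without. Array weights called 3 of these 13 markers lower, against 2.38% of all genes, and voom called 0. The part of these markers' cells in the cell cycle values was not tested. With array weights 12 of the 36 cell cycle genes were called lower, against the same 2.38% of all genes, and 0 with voom. Among genes of higher expression, those with the largest folds below 0 without overlap include Slc22a17 (-0.47 ± 0.21), which encodes a lipocalin receptor, and the RNA-binding proteins Taf15 (-0.42 ± 0.13) and Hnrnpa0 (-0.37 ± 0.10). Hnrnpa0 had 919, 1163 and 1038 with amyloid-beta and 1220, 1548 and 1263 without.

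**Figure D2:**
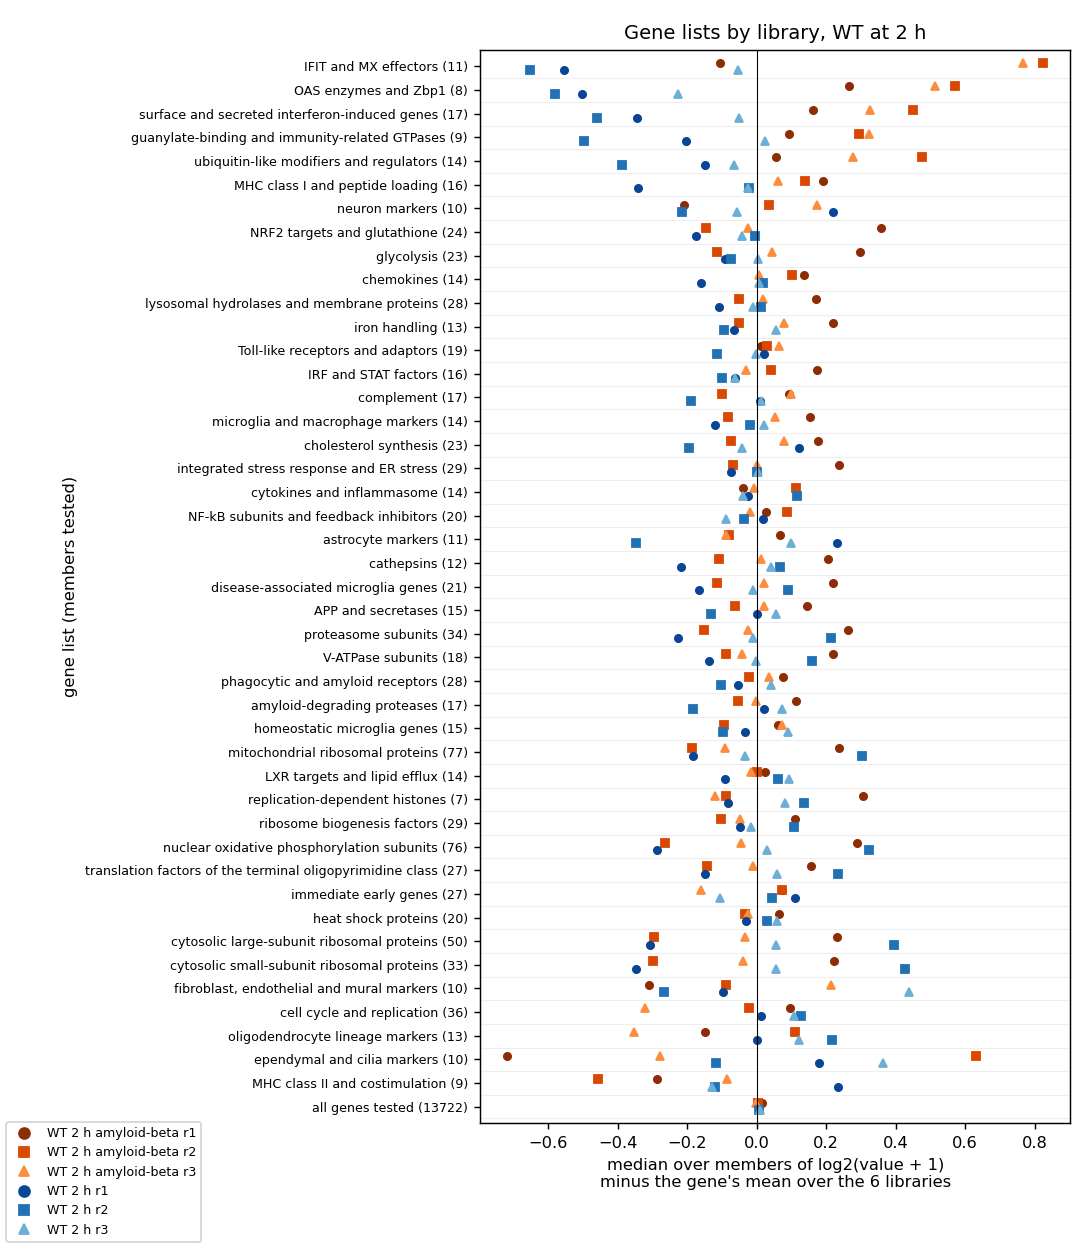
Median of each gene list in each library, as log2(value + 1) minus the gene's mean over the 6 libraries, for WT 2 h amyloid-beta (upper points of each row, orange and brown) and WT 2 h (lower points, blue), lists in order of their median log2 fold change and all 13722 genes at the bottom. In the interferon lists every amyloid-beta library lies to the right of every untreated one, except that in the IFIT and MX list amyloid-beta replicate 1 (-0.11) lies left of untreated replicate 3 (-0.05), while ribosomal, mitochondrial and proteasome lists have amyloid-beta replicate 1 and untreated replicate 2 to the right whatever the treatment.

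MHC class II genes, which present peptides to CD4 T cells, had a median of -0.33 over 9 genes, and this value rests on 1 untreated library. H2-Aa had 1, 1 and 8.35 with amyloid-beta and 283, 1 and 5.27 without, where 1 is the floor. H2-Ab1 had 9.97, 2.03 and 12.5 with amyloid-beta and 326, 2.93 and 3.16 without, and Cd74, the invariant chain that guides class II molecules, had 58.4, 75 and 80.7 with amyloid-beta and 828, 62.2 and 101 without. Untreated replicate 1 was above every other library in each of them, and the groups overlapped. Without it the list median was -0.08, with 2 of 9 genes above 0. In the other 14 WT libraries of the study H2-Aa reached 8.35 and Cd74 101, and in libraries labelled PD-1 KO they reached 41.1 and 386. Ciita, the regulator that switches on class II genes, is one of the genes below the filter on low values. It had 42.7 in untreated replicate 1, at most 3.31 in the other 14 WT libraries and at most 8.61 under the PD-1 KO label. H2-DMb1, a class II chaperone, and Cd86, a costimulatory molecule of the same list, did not follow.

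Untreated replicate 1 stood apart in further genes, chosen here after their values were seen. A total of 16 genes had a value of at least 30 there and were at least 4-fold above each of the 5 other libraries, against 0 genes in each of those 5 libraries. They include Cd74, H2-Aa, H2-Ab1, H2-Eb1 and Ciita, and Clec9a (38.0), Xcr1 (33.4) and Flt3 (40.8), receptors known from dendritic cells that cross-present antigen. Cd8a (49.2), also found on a subset of mouse dendritic cells as well as on T cells, was at the floor of 1 in all 5 other libraries, and Plbd1 (101) was at 1.42 or below. The inducible heat shock genes Hspa1a (226, against at most 44.6) and Hspa1b (149, against at most 29.9) are among the 16 as well. No list of dendritic cell markers was drawn up, and the part of other cells in these values was not tested.

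**Figure D3:**
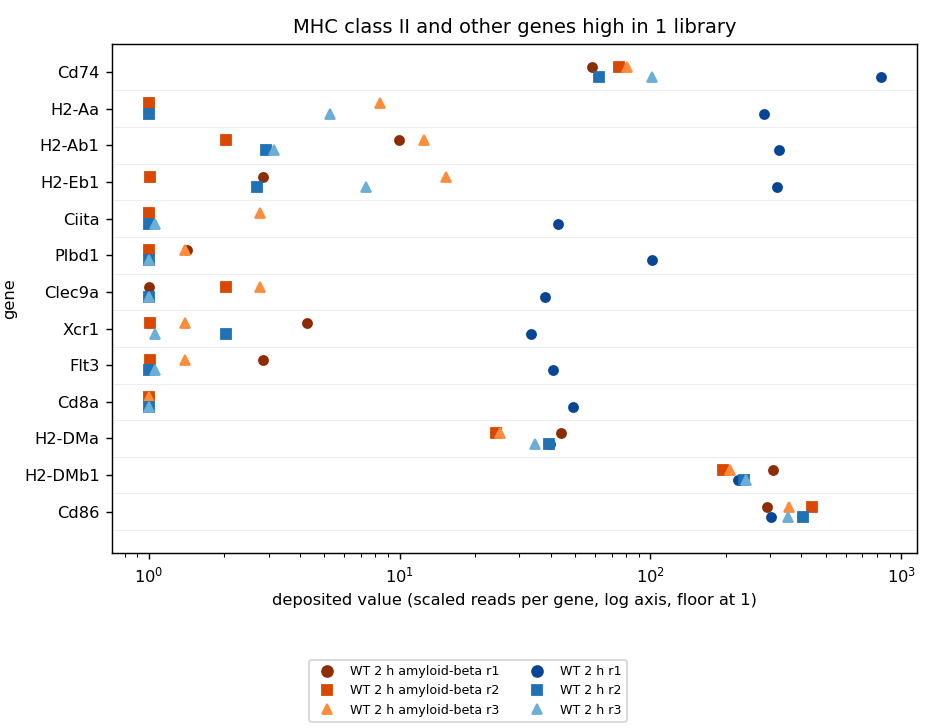
Deposited values (scaled reads per gene, log axis, floor at 1) of 13 genes in WT 2 h amyloid-beta libraries (upper points of each row, orange and brown) and WT 2 h libraries (lower points, blue). Untreated replicate 1 (dark blue circles) is far to the right for Cd74, the class II genes, Ciita, Plbd1, Clec9a, Xcr1, Flt3 and Cd8a, and within the other libraries for H2-DMa, H2-DMb1 and Cd86.

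Cytosolic ribosomal protein genes, which encode the structural proteins of the ribosome, split the 6 libraries along another line than treatment. Their share of all values was 4.46%, 3.43% and 3.96% in amyloid-beta replicates 1, 2 and 3 and 3.44%, 5.23% and 4.20% in untreated replicates 1, 2 and 3. The highest and nearly the lowest share were thus both untreated libraries, and the amyloid-beta libraries lay between them or level with the lowest. Across the 83 genes the log2 fold change ran from -0.28 (Rpl36) to 0.11 (Rpl7l1) with a median of -0.09. The groups overlapped for all 83, and 0 had an unadjusted p under 0.05 in limma, the lowest being 0.099. The sign of the median depended on single libraries: it was 0.09 without untreated replicate 2 and 0.04 without amyloid-beta replicate 2, but -0.27 without untreated replicate 1 and -0.22 without amyloid-beta replicate 1.

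Between libraries of the same group the genes moved together. Untreated replicate 2 was above untreated replicate 1 in 83 of 83 genes, with a median log2 difference of 0.74, and amyloid-beta replicate 1 was above amyloid-beta replicate 2 in 83 of 83, with a median of 0.56. Untreated replicate 2 was the highest of the 6 libraries for 72 genes (86.7%), against 18.7% of the other genes tested, amyloid-beta replicate 1 for 10 and untreated replicate 3 for 1, Rpl30. The lowest library was untreated replicate 1 for 48 genes and amyloid-beta replicate 2 for the other 35. Rpsa, a small-subunit protein, had 15464, 10497 and 13146 with amyloid-beta and 10082, 16295 and 13218 without. Rpl4, of the large subunit, had 15110, 11135 and 13796 with amyloid-beta and 11140, 15281 and 14579 without. Rps27a, made as a fusion with ubiquitin, had a wider range, with 6952, 4708 and 5765 with amyloid-beta and 4209, 8932 and 6273 without. Each of these 3 genes had its highest value in untreated replicate 2 and a low one in untreated replicate 1 and amyloid-beta replicate 2. Rpl34 had the widest range of the 83, with 245, 157 and 221 with amyloid-beta and 118, 299 and 289 without. Many ribosomal protein genes have processed copies elsewhere in the genome, and how such reads were assigned is not given in the sources used here.

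Large and small subunits shifted alike. Against the gene means, large-subunit genes had medians of 0.23, -0.29 and -0.03 in amyloid-beta replicates 1, 2 and 3 and -0.31, 0.39 and 0.05 in untreated replicates 1, 2 and 3, and small-subunit genes 0.22, -0.30 and -0.04 with amyloid-beta and -0.35, 0.43 and 0.05 without. Nuclear genes of oxidative phosphorylation, which encode respiratory chain subunits, had 0.29, -0.26 and -0.05 with amyloid-beta and -0.29, 0.32 and 0.03 without. Mitochondrial ribosomal proteins (0.24, -0.19 and -0.09 with amyloid-beta, -0.18, 0.30 and -0.03 without) and proteasome subunits (0.26, -0.15 and -0.02 with amyloid-beta, -0.23, 0.21 and -0.01 without) had the same order of high and low libraries. In these 3 lists amyloid-beta replicate 1 and untreated replicate 2 were the highest libraries, in that order in the proteasome and in the other order in the mitochondrial lists. Ribosome biogenesis factors, which assemble ribosomes but are not part of them, moved less, from -0.10 to 0.11. The spread of the ribosomal share was the widest of the study in these groups: the highest and lowest library differed by 1.03 percentage points in WT 2 h with amyloid-beta and by 1.79 in WT 2 h, against 0.156 to 0.877 in the other 8 groups.

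**Figure D4:**
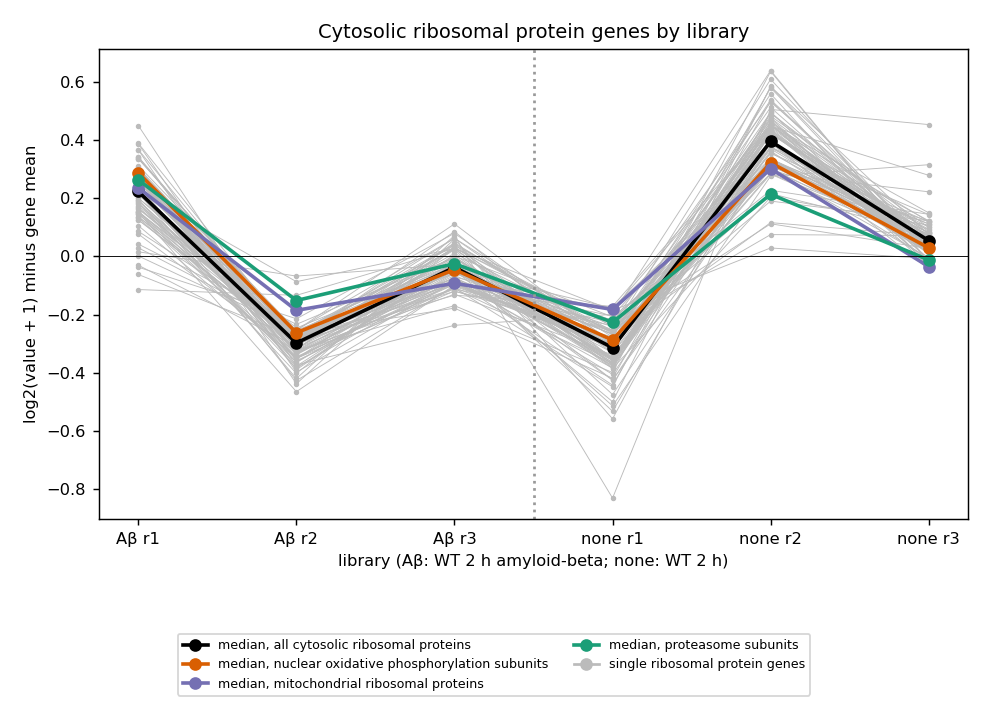
Each grey line is 1 of 83 cytosolic ribosomal protein genes, as log2(value + 1) minus the gene's mean over the 6 libraries, with the 3 WT 2 h amyloid-beta libraries on the left and the 3 WT 2 h libraries on the right. Thick lines are list medians, which are high in amyloid-beta replicate 1 (0.22 for ribosomal proteins) and untreated replicate 2 (0.40) and low in amyloid-beta replicate 2 (-0.30) and untreated replicate 1 (-0.31).

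The same division of libraries ran through genes of other functions by transcript length. Ribosomal protein genes have short transcripts, with a median length of 696.5 bases against 2259 bases over the 13182 tested genes (96.1%) with a length in the GENCODE annotation of GRCm38. With the ribosomal, mitochondrial ribosomal, oxidative phosphorylation, proteasome and translation factor lists left out, 982 genes under 750 bases had medians of 0.12, -0.07 and -0.05 in amyloid-beta replicates 1, 2 and 3 and -0.08, 0.13 and near 0 in untreated replicates 1, 2 and 3. The 1359 genes of 5000 bases or more had the opposite signs, with -0.28, 0.17 and 0.11 with amyloid-beta and 0.20, -0.25 and 0.05 without. Amyloid-beta replicate 1 and untreated replicate 2 were thus high in short genes and low in long ones, and the 2988 genes of 2000 to 3000 bases had medians from -0.01 to 0.01 in all 6 libraries. The shift of the ribosomal proteins in untreated replicate 2 (0.40) was larger than that of other short genes in the same library (0.13 under 750 bases). Between the treatments the length classes did not differ by more than a median log2 fold change of -0.02 to 0.01. The share of G and C bases in the transcript also went with the libraries, over the same genes. In the class of lowest share (33.4% to 45.3%) the medians were -0.22, 0.08 and 0.09 with amyloid-beta and 0.04, -0.06 and 0.08 without. In that of highest share (56.3% to 71.3%) they were 0.03, -0.02 and -0.05 with amyloid-beta and 0.02, 0.10 and -0.02 without. Length and base content were not separated, and what produced these patterns was not tested.

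**Figure D5:**
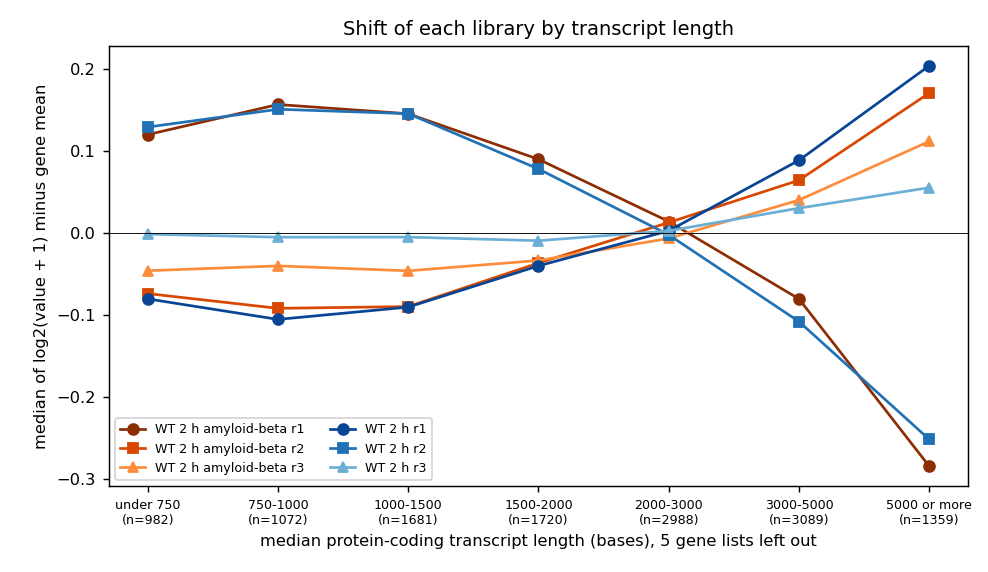
Median of log2(value + 1) minus the gene's mean over the 6 libraries, by transcript length in 7 classes, 1 line per library, WT 2 h amyloid-beta in orange and brown and WT 2 h in blue. Amyloid-beta replicate 1 and untreated replicate 2 run from 0.12 and 0.13 in the shortest class to -0.28 and -0.25 in the longest, and the other 4 libraries the other way or nearly flat.

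In a principal component analysis of the 6 libraries over the 6861 genes in the upper part of mean expression, the leading component held 60.6% of the variance, with scores of 0.26, -0.15 and -0.09 in amyloid-beta replicates 1, 2 and 3 and -0.16, 0.16 and -0.04 in untreated replicates 1, 2 and 3. Its sign thus set apart the same pair of libraries as the ribosomal proteins, 1 of each group. The second component held 22.5% and mainly set amyloid-beta replicate 1 against untreated replicate 2. Its scores were -0.13, -0.0008 and -0.05 with amyloid-beta and 0.01, 0.19 and -0.01 without. The fourth, with 4.63%, had scores of 0.00, 0.07 and 0.02 with amyloid-beta and -0.06, 0.01 and -0.04 without. The sign of a component is arbitrary. In both the second and the fourth all amyloid-beta scores lay on 1 side of 0, and the groups overlapped. When the mean log2 level of the ribosomal proteins was added to the model as a covariate, 0 genes passed and 1269 had an unadjusted p under 0.05, against 681 without it. In a fit of the 6 libraries alone with that covariate, 1 gene passed, Irf7 (1.20, limma adjusted p = 0.0279). The median of the interferon genes was 0.49 over 75 genes with the covariate, and 0.47 over the 74 tested in the fit of the 6 libraries alone.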

How the data were processed

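RNA sequencing libraries were made by the submitters from total RNA. What the authors deposited is a signal per gene, for 13788 genes across 30 libraries. The values show that the authors divided gene counts by a size factor per library and set values under 1 to 1. No value above the floor failed to be a whole multiple of the library's step (100% within 0.05, up to 5000 reads), and 4485 values (1.08%) lay at the floor. Tools named in the submitters' processing notes are DESeq2 (no version), R 3.0.2, Partek 6.6 and HISAT 0.1.5, and the build is mm10. The counter and annotation are not given in the sources used here.

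Genes with a value of 10 or more in at least 3 of 30 libraries were kept (13722). One mean per group was fitted to log2(value + 1) with limma 3.58.1 in R 4.3.3 (trend, 20 residual degrees of freedom), and p-values were adjusted over all tested genes with a threshold of 0.05. A fold on this scale understates the change of low genes. Voom used reads recovered by dividing values by the step. On simulated data for WT at 2 h (13745 genes), 84 of 100 changes of 2-fold and 99 of 100 of 4-fold were recovered, with 15 false among 198 calls. The simulation drew each gene independently, with a spread averaged over all groups and no changes in the lowest genes. It thus lacks the shift that many genes share in the 6 libraries. Its recovery does not show how many such changes the 0 calls in the real data could miss. The members and gene lists were chosen with earlier results of these data known. Named genes are those with the largest folds without overlap among genes of higher expression, up to 4 such members of each list, the ribosomal protein genes of highest mean or widest range, a fixed set of genes of interest, and genes called by a setting that calls 20 or fewer. The text gives part of them, and 1 withheld item is not reported here. Alternatives were other pseudocounts, filters and scalings, a fit of the compared groups alone, no trend, robust fitting, array weights, voom, the ribosomal mean as covariate and leaving out each library, and array weights or that covariate in the compared groups alone, which were added after the data were seen. Promoters are RefSeq's for GRCm38.p6, matched by symbol. Figures were drawn with matplotlib 3.10.9 in Python 3.11.15.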

Additional observations from a re-analysis of the deposited data

Results flagged for a closer look

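The effect of amyloid-beta in WT at 2 h differed from its effect at the same time in libraries labelled PD-1 KO for 7 genes, tested as a difference of the effects in limma with Benjamini-Hochberg adjustment over 13722 genes. All 7 differences were positive, on the log2 scale, while array weights gave 214 positive and 263 negative ones. Oas3 differed by 4.85 ± 0.74 (SE, adjusted p = 0.00537), Ifi27l2a by 2.64 ± 0.45 and Zbp1 by 2.38 ± 0.45. Irf7 differed by 2.24 ± 0.35, Oasl2 by 2.06 ± 0.34, Ly6e by 1.70 ± 0.30 and Oas1a by 1.26 ± 0.25, with the highest adjusted p of the 7 (0.0443). With amyloid-beta at 2 h, Oas3 had only 8.61, 1 and 4.83 under the PD-1 KO label, where 1 is the floor, so its difference depends on the pseudocount.

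The effect in WT at 2 h also differed from that in WT at 8 h for 37 genes, by the same test, of which a part follows here. C3, Tlr2, Trex1, H2-Q4, Pdgfra, Nlgn3, Id1 and Marcksl1, named above, are among the 37 as well. Among the antiviral effectors, Ifit3 differed by 3.43 on the log2 scale, Rsad2 by 2.93, Ifit2 by 2.92, Mx1 by 2.74, Ifit1 by 2.62, Rtp4 by 1.96 and Ddx58 by 1.17. Oas3 differed by 3.83, Zbp1 by 2.60 and Oasl2 by 1.83. Irf7 differed by 2.85 and Stat2 by 0.96. The modifier Isg15 differed by 2.08, its protease Usp18 by 2.68 and Rtp4, of the list of modifiers and regulators, by 1.96. Surface and secreted products included Ifi27l2a at 2.08, Ifitm3 at 1.74, Ly6e at 1.70 and Lgals3bp at 1.09. The chemokine Cxcl10, outside the interferon lists, differed by 1.62. The GTPases Gbp2 and Igtp differed by 1.86 and 1.14, and H2-K1 by 0.75. The adjusted p of these genes ran from 0.000121 for Irf7 and Ifit3 to 0.0495 for Cxcl10.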

How the results depend on the processing

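The 0 genes past the threshold for amyloid-beta in WT at 2 h became 540 with array weights, 15 with voom, 291 with array weights in the compared groups alone and 1 with the ribosomal covariate there; leaving out 1 library gave 0 to 1, the 1 being Samd9l (0.76) without amyloid-beta replicate 1. Other scalings, pseudocounts, filters and variance settings gave 0 there, with 508 to 700 genes at an unadjusted p under 0.05, and the fit of the compared groups alone gave 0, with 234. The 7 genes that differed from the PD-1 KO label became 2 with no trend, 2 with voom, 477 with array weights, 39 with the ribosomal covariate (37 higher, 2 lower) and, in the compared groups alone, 16 with that covariate and 592 with array weights; leaving out 1 library gave 2 to 30. The 37 genes that differed between 2 h and 8 h became 17 after quantile normalization, 23 in the compared groups alone, 805 with array weights, 71 with the ribosomal covariate and, in the compared groups alone, 66 with that covariate and 920 with array weights; leaving out 1 library gave 12 to 93. The cause was not tested. No named gene changed direction past the threshold. No paired analysis was possible because the labels number libraries singly and share no replicate number between groups. The planned edgeR and DESeq2 fits were not run, since the floor hides low reads and the values are not raw counts. Low genes are limited by depth, in particular where 1 read is worth over 1 unit.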

Other observations

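Amyloid-beta replicate 1 was at least 4-fold below each of the 5 other libraries in 5 genes with values of at least 30 in those libraries. They were found after the values were seen, and long noncoding RNAs are among them. Meg3, an imprinted RNA known from neurons and other cells, had 14.2 there and at least 76.9 in the 5 other libraries, and Miat had 24.2 there and at least 117 in the others. Bzrap1 had 15.7 there and at least 66.4 in the others, Slc9a5 14.2 and at least 65.4, and A330023F24Rik 8.55 and at least 39.0. Xist, the RNA that silences 1 X chromosome in female cells, had 2874, 8436 and 6725 with amyloid-beta and 8492, 4923 and 5802 without, and 2874 was the lowest value of the 30 libraries. The Y-linked genes Ddx3y (256, 509 and 516 with amyloid-beta, 466, 403 and 423 without) and Eif2s3y (161, 255 and 237 with amyloid-beta, 256, 301 and 246 without) were present in all 6 as well. Female and male transcripts thus occurred together in each of the 6 libraries, with amyloid-beta replicate 1 the lowest of the 6 for all 3 genes.

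Markers of ependymal and ciliated cells had sums of 98.9 to 243 with amyloid-beta and 141 to 184 without, and those of fibroblasts, endothelial and mural cells 611 to 748 with amyloid-beta and 663 to 897 without, both overlapping between the groups.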
